A study of Homo sapiens with 3 samples.

Results

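EPCAM, the surface serine proteases matriptase, prostasin and TMPRSS4, the protease inhibitors HAI-1 and HAI-2 and the proprotein convertases PCSK5 and FURIN were measured as mRNA in H1975, OR1 and OR2 cells. The 8 genes were taken by symbol from the non-control probes of the arrays, with every probe that carries the symbol. They gave 11 probes among 58200, and 8 genes among 43316. H1975 (NCI-H1975) is a human non-small cell lung cancer line with mutated EGFR that is sensitive to osimertinib, an inhibitor of mutated EGFR. OR1 and OR2 are osimertinib-resistant lines that were selected separately from H1975 in rising doses of the drug, to 2 μmol/L over 4 months, and all 3 lines therefore go back to cells with mutated EGFR. Each resistant line is a single selected line, and what was compared is each of these lines with its parental cells. One RNA sample per line was hybridized to 1 array, all 3 arrays on 1 slide. There were no replicates, so no difference below has a test. The error given is a technical SD on the log2 scale, taken from the error that the scanner software gives each spot, and it leaves out the spread between cultures. OR1 and OR2 were both set against the same H1975 array, so their ratios are not independent of each other.

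EPCAM is a cell adhesion protein of epithelial cells that forms complexes with claudin-7 at cell contacts. Matriptase, encoded by ST14, is a type II transmembrane serine protease that activates prostasin (PRSS8) and other surface proteins, and it can cleave EPCAM. HAI-1 (SPINT1) and HAI-2 (SPINT2) are transmembrane Kunitz-type inhibitors that hold matriptase and prostasin in check in epithelia. FURIN and PCSK5 are proprotein convertases, which cleave precursors of growth factors, receptors and proteases after basic residues.

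For the ratios, the processed intensities were scaled on each array's 75th percentile, which was 157 (H1975), 138 (OR1) and 162 (OR2), respectively. Intensities that a gene or probe read, and their sums, are given before this scaling. Quotients of these intensities therefore differ from the ratios. Between 45.6% and 45.9% of the probes per array were called well above background by the scanner software, and no spot was saturated. As in the methods of the study, a ratio to H1975 of at least 2 was called higher and a ratio of at most 0.5 lower. Of the epithelial keratins, KRT8, KRT18, KRT7 and KRT19, 4 of 4 were well above background in every line, with intensities that summed to 365913 in H1975 cells, 147180 in OR1 cells and 170302 in OR2 cells. The OR1 and OR2 ratios of KRT8 were 1.12 and 0.964, beside 0.884 and 0.806 for KRT18, 0.463 and 0.492 for KRT19, and 0.164 and 0.170 for KRT7. Of 4 leukocyte markers, 3 were called well above background in each line and the T cell gene CD3E in none. They summed to 1653 in H1975 cells, 2133 in OR1 cells and 2599 in OR2 cells. The monocyte gene CD14 had ratios of 4.25 and 6.56, the B cell gene CD79A read 1365, 1124 and 796, and the pan-leukocyte gene PTPRC stayed between 20.5 and 21.0. The 3 endothelial markers summed to between 89.0 and 104 (103.9). Of the mesenchymal markers, ZEB1, a repressor of epithelial genes, had ratios of 4.74 and 5.14, VIM of 1.58 and 1.83, SNAI2 of 0.617 and 0.546 and FN1 of 0.735 and 0.205, ZEB2 was at least 2.61-fold higher in OR1 alone, and CDH2 stayed at background throughout. The part of these markers in the results below was not tested.

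All 8 genes gave a signal well above background in H1975 cells. In both resistant lines, 7 of them were lower than in H1975 by the ratio of 0.5, and FURIN was not. Over all 22418 genes above background on at least 1 array, 9.34% were lower in OR1, 8.41% in OR2 and 6.32% in both lines. Since the 8 genes were all measured in H1975, the closer background is that of the 20332 genes well above background there, of which 10.3% (OR1), 9.28% (OR2) and 6.97% (both) were lower. No member was higher in either line, against 8.95% of genes in OR1, 7.47% in OR2 and 5.09% in both. The median log2 ratio of the 8 genes was −4.11 in OR1 and −3.52 in OR2. TMPRSS4 entered at its bound, so both values are upper bounds, and they were −4.79 and −4.30 without a background filter. Over all genes with a ratio the medians were 0.039 in OR1 (21864 genes) and −0.057 in OR2 (21686 genes). In bulk RNA of this kind, fewer cells that express a gene and less RNA per cell cannot be told apart.

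**Figure D1:**
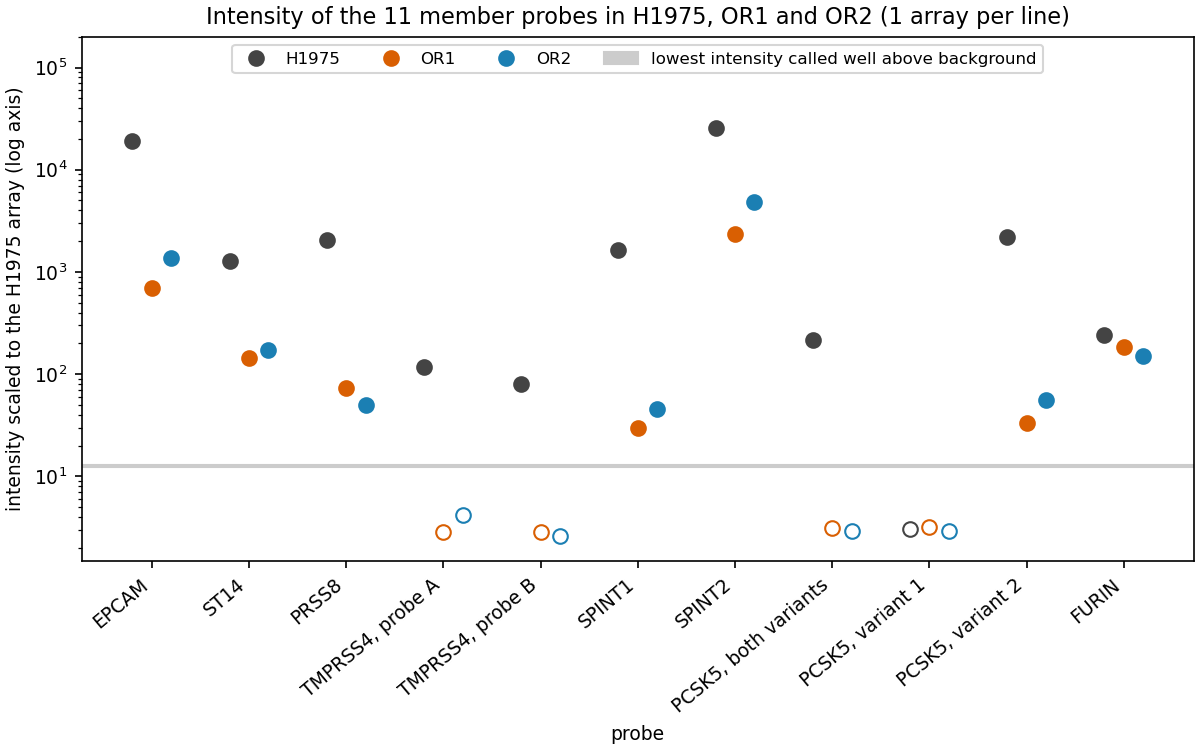
Each point is 1 probe on 1 array, at its intensity on a log axis after scaling to the 75th percentile of the H1975 array. Filled points were well above background and open points were not, and the grey band marks the lowest intensity so called. For every probe that was above background in H1975, apart from that of FURIN, OR1 and OR2 lie far below H1975, and 3 probes fall below the band in both resistant lines.

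The adhesion protein EPCAM read 18987 on the H1975 array, 616 on the OR1 array and 1415 on the OR2 array, in units of processed intensity before scaling. OR1 and OR2 were thus both low, with OR1 the lower. The ratios to H1975 were 0.0370 in OR1 and 0.0725 in OR2, which are 27.0-fold and 13.8-fold lower (log2 ratios −4.76 ± 0.20 and −3.79 ± 0.20, technical SD). Of all genes with a ratio, 0.325% in OR1 and 0.443% in OR2 were at or below EPCAM. The probe was still well above background in both resistant lines. It is the sequence of NM_002354 at chr2:47613894-47613953 on hg19, as the array files give it.

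The protease genes at the cell surface were lower in both lines as well. ST14, the matriptase gene, read 1293 (H1975), 126 (OR1) and 176 (OR2) (NM_021978, chr11:130079815-130079874 on hg19). It was 9.02-fold lower in OR1 and 7.53-fold lower in OR2 (log2 −3.17 ± 0.21 and −2.91 ± 0.21), and 0.933% and 0.955% of genes were at or below it. Both resistant lines lay close together here, and the decrease was the smallest among the called proteases with a measured ratio in OR1 and OR2.

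PRSS8, which encodes prostasin, a membrane-anchored protease that matriptase activates, read 2069.8 in H1975, 63.9 in OR1 and 51.3 in OR2 (NM_002773, chr16:31142754-31142813). OR2 was the lower line for this gene, unlike for EPCAM and ST14. The ratios were 0.0352 and 0.0241, or 28.4-fold and 41.4-fold lower (log2 −4.83 ± 0.21 and −5.37 ± 0.22). Of all genes, 0.115% were at or below PRSS8 in OR2, and 0.306% in OR1. With normexp correction the ratios were 0.0641 and 0.0505.

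TMPRSS4, another type II transmembrane serine protease of epithelial tumours, was measured by a pair of probes for NM_001290094. The probe at chr11:117988109-117988168 read 118 (H1975), 2.53 (OR1) and 4.27 (OR2). The probe at chr11:117990456-117990515 read 80.6, 2.50 and 2.71. Both were at background in the resistant lines, so that the difference has only a bound, taken against the lowest intensity called well above background on the resistant array. By the first probe TMPRSS4 was at least 9.06-fold lower in OR1 and at least 9.60-fold lower in OR2, and by the second at least 6.20-fold and 6.56-fold lower.

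The inhibitor genes fell along with the proteases. SPINT1, the gene of HAI-1, read 1636 in H1975, 26.0 in OR1 and 46.9 in OR2 (NM_181642, chr15:41149316-41149375), with ratios of 0.0181 and 0.0279. This is 55.2-fold lower in OR1 and 35.9-fold lower in OR2 (log2 −5.79 ± 0.24 and −5.17 ± 0.22), and 0.128% and 0.161% of genes were at or below it. With normexp correction the SPINT1 ratios were 0.0528 and 0.0586, a smaller decrease in both lines. SPINT2, the gene of HAI-2, read 25880.5 in H1975, 2066 in OR1 and 4925 in OR2 (NM_021102, chr19:38782859-38782918). Its ratios were 0.0910 in OR1 and 0.185 in OR2, the latter being 5.40-fold lower (log2 −3.46 ± 0.20 and −2.43 ± 0.20). SPINT2 had the smallest decrease in OR2 among the called genes with a measured ratio, where 1.54% of all genes were at or below it.

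**Figure D2:**
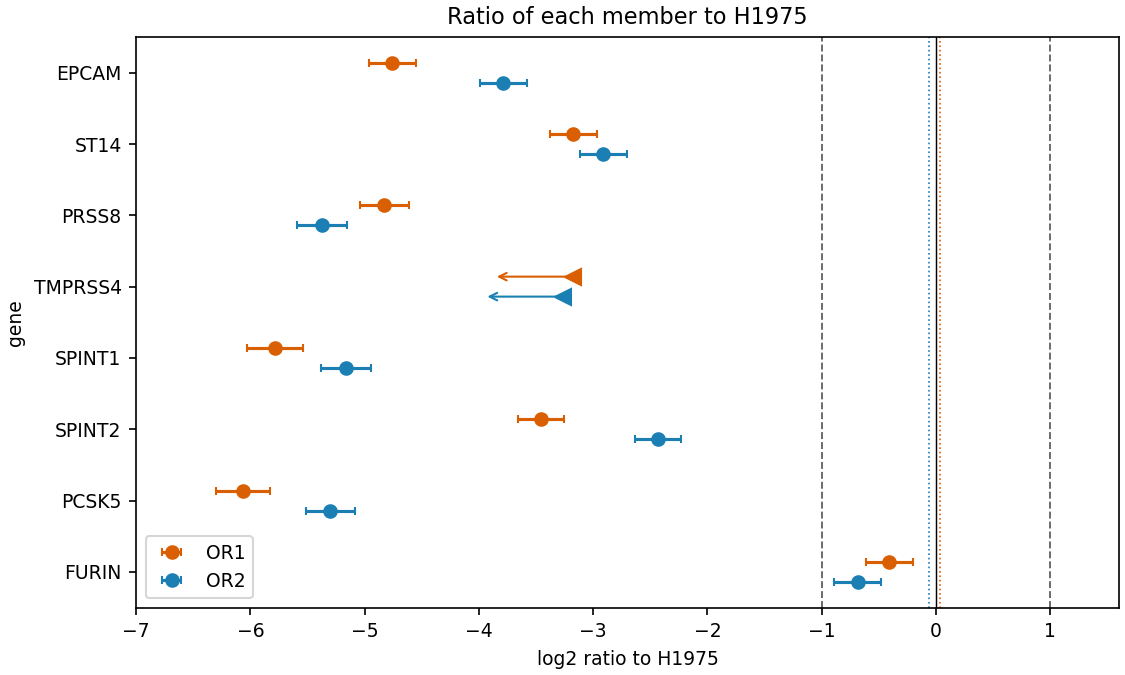
The horizontal axis is the log2 ratio to H1975 and each row is a gene, with OR1 and OR2 as separate points and bars of 1 technical SD. Triangles with arrows are upper bounds (TMPRSS4), dashed lines mark ratios of 0.5 and 2, and dotted lines mark the medians of all genes. The 7 called genes lie between −6.07 and −2.43, and FURIN lies at −0.41 and −0.68.

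The convertases parted. FURIN, the convertase found in most cells, read 242 in H1975, 159.9 in OR1 and 155 in OR2 (NM_002569, chr15:91425997-91426056). Its ratios of 0.753 and 0.623 did not reach the limit of 0.5 (log2 −0.41 ± 0.21 and −0.68 ± 0.21). In OR1 25.1% of genes, and in OR2 16.1%, had as low a ratio. PCSK5, a convertase with a soluble and a membrane-anchored form made by alternative splicing, was measured by 3 probes that differ in the transcripts they detect, and their sequences are given here because the 3 readings were not alike. By RefSeq accession 1 probe is on transcript variant 2 (NM_006200), which encodes the soluble form PC5A, 1 is on both variants, and 1 is on variant 1 alone (NM_001190482), which encodes the membrane-anchored form PC5B. The first of these, called the variant 2 probe here, and the second are also listed for the non-coding PCSK5 transcript NR_120409, so the reading of the variant 2 probe is not specific to the transcript of the soluble form. The probes lie on hg19 at chr9:78808212-78808271, chr9:78789952-78790011 and chr9:78973779-78973838, in this order. Capitals mark the first stop triplet when the probe is read in triplets from its first base.
PCSK5 variant 2 probe: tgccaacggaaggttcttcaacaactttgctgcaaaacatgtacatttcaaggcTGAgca
PCSK5 both variants probe: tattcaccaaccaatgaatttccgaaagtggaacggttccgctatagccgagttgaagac
PCSK5 variant 1 probe: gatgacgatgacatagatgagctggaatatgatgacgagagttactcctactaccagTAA

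The variant 2 probe read 2217 in H1975, 29.0 in OR1 and 57.8 in OR2. It was 67.0-fold lower in OR1 and 39.4-fold lower in OR2 (ratios 0.0149 and 0.0254, log2 −6.07 ± 0.24 and −5.30 ± 0.21). In OR1 this was the lowest of the 7 measured ratios, TMPRSS4 having only a bound, and 0.0915% of all genes in OR1 and 0.134% in OR2 were at or below it. With normexp background correction the ratios were 0.0395 and 0.0474, and EPCAM was as low in OR1 (0.0394). With the median over the probes of PCSK5 they were bounds of at most 0.0606 and 0.0572. The probe shared by both variants read 215 in H1975, 2.73 in OR1 and 3.03 in OR2, fell to background in both resistant lines, and was at least 16.5-fold and 17.5-fold lower. The probe of variant 1 read 3.06, 2.81 and 3.03 without rising above background in any line, so no ratio was given for it. The probes with signal in H1975 therefore both fell, and the membrane-anchored variant was not detectable in any of the 3 lines with this probe.

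Counted by probe, 9 of the 11 probes were lower in OR1 and 9 in OR2, of which 3 were bounds. The other two were that of FURIN and the variant 1 probe of PCSK5.

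The 2 resistant lines were also set against each other, which leaves the H1975 array out. Of the 7 genes above background in both, 5 were higher in OR2 than in OR1 and 2 were lower. The largest differences were those of SPINT2, 2.03-fold higher in OR2 (log2 1.02 ± 0.20), and EPCAM, 1.96-fold higher (log2 0.97 ± 0.20). Differences as large were seen for 3.28% and 3.85% of the 18591 genes above background on all 3 arrays, whose median difference was 0.27 on the log2 scale. PCSK5 was 1.70-fold higher in OR2 (log2 0.77 ± 0.24) and SPINT1 1.54-fold (log2 0.62 ± 0.26). ST14 had an OR2 to OR1 ratio of 1.20 (log2 0.26 ± 0.21), and 51.9% of genes differed by as much. PRSS8 was lower in OR2, at a ratio of 0.685 (log2 −0.55 ± 0.23), and FURIN at 0.827 (log2 −0.27 ± 0.21). The direction of PRSS8 and FURIN between the resistant lines depended on the scaling, since with the arrays scaled on spike-in RNA their log2 values were 0.13 and 0.40. The same scaling raised the OR2 to OR1 ratio to 3.24 for SPINT2, 3.13 for EPCAM, 2.71 for PCSK5, 2.45 for SPINT1 and 1.91 for ST14. With normexp correction PCSK5 and SPINT1 came to 1.20 and 1.11.

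**Figure D3:**
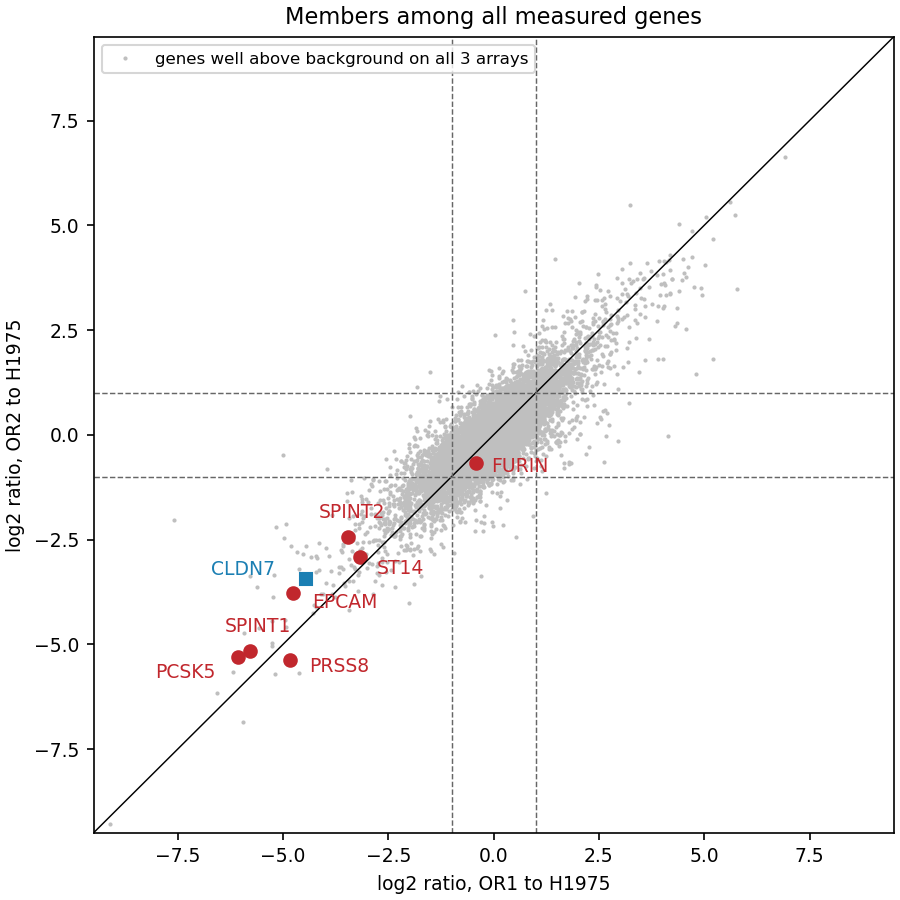
Each grey point is a gene above background on all 3 arrays, with its log2 ratio to H1975 in OR1 on the horizontal and in OR2 on the vertical axis, so both axes share the H1975 array. Red circles are the measured members, the blue square is CLDN7, dashed lines mark ratios of 0.5 and 2, and the diagonal marks equal ratios. EPCAM (−4.76 and −3.79) lies beside CLDN7, and PRSS8 is the called member below the diagonal.

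Within an array, the change of a protease can be set against that of an inhibitor, a comparison in which a scaling factor between arrays cancels. There were 5 such pairs, including that of the convertases PCSK5 and FURIN. SPINT1 fell further than ST14, so that the ratio of ST14 to SPINT1 signal was 6.12-fold higher in OR1 than in H1975 (log2 2.61 ± 0.32) and 4.76-fold higher in OR2 (log2 2.25 ± 0.30). Over the alternative processings the value was 2.83 to 6.33-fold in OR1 and 2.86 to 4.76-fold in OR2, lowest with normexp correction in both lines. Most alternatives could not move it. A scaling factor cancels, and neither gene has a further probe or a signal at background, so the filters and the median over probes change nothing. The ratio of ST14 to SPINT2 was 1.22 times that of H1975 in OR1 (log2 0.28 ± 0.29) and 0.717 times in OR2 (log2 −0.48 ± 0.29). With normexp correction it was 1.68 times in OR1 (log2 0.75) and 0.885 times in OR2. For prostasin, the ratio to SPINT1 changed by a factor of 1.94 in OR1 (log2 0.96 ± 0.32) and 0.866 in OR2 (log2 −0.21 ± 0.31), with 1.21 in OR1 after normexp correction. PRSS8 fell further than SPINT2, and their ratio changed by a factor of 0.387 in OR1 (log2 −1.37 ± 0.29) and 0.130 in OR2 (log2 −2.94 ± 0.30), and by 0.720 and 0.267 with normexp correction. The 2 inhibitors thus differed in how far each fell beside the same protease. Of the convertases, the ratio of PCSK5 to FURIN changed by factors of 0.0198 and 0.0407 (log2 −5.66 ± 0.31 and −4.62 ± 0.30), and by 0.0491 and 0.0677 with normexp correction.

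The genes whose pattern over the 3 arrays was most like that of a member were found by the Euclidean distance between scaled log2 values, each taken from its own mean, among 18584 other genes above background on all 3 arrays. With 3 arrays this is a description of 3 values per gene. Nearest to EPCAM was CLDN7, the gene of claudin-7 (distance 0.27), followed by PCED1B (0.30) and the prostaglandin transporter SLCO2A1 (0.36). Nearest to ST14 were the calcium-binding protein S100P (0.042), the kinesin KIF21B (0.081) and the integrin ITGB7 (0.085). For PRSS8 they were PALM3 (0.063), the IGF-binding protein IGFBP2 (0.29) and PMEPA1 (0.36). SPINT1 was nearest to PRR5-ARHGAP8 (0.37), S100A14 (0.38) and the serpin SERPINB5 (0.38), and SPINT2 to GPNMB (0.056), the sialyltransferase ST6GALNAC2 (0.081) and GATM, an enzyme of creatine synthesis (0.093). PCSK5 was nearest to S100A14 (0.26), the serine protease PRSS22 (0.41) and netrin-1, NTN1 (0.50). Few genes had as low ratios as SPINT1, PRSS8 and PCSK5, and the third neighbour of each lay at 0.36 or more. The third neighbour was at 0.085 for ST14 and 0.093 for SPINT2. None is named for TMPRSS4, whose values in OR1 and OR2 were below background and have no order.

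Around these 8 genes, 65 further genes in 6 lists were examined, of which 44 gave a signal above background in some line. In OR1 and OR2 together, 6 of the 44 (13.6%) were lower and 6 (13.6%) were higher, beside 6.32% and 5.09% of all genes. The median log2 ratio of the listed genes was 0.22 in OR1 and 0.29 in OR2. Unlike the 8 members, the listed genes thus lay on both sides. Members and lists were chosen with earlier results of these data known, so this contrast is a description and not a test. Of the 6 higher genes, CLDN1, TMPRSS3 and TMPRSS15 were bounds from background, no longer called in both lines with normexp correction. Of the 6 lower genes, TMPRSS6 also lost its call there.

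**Figure D4:**
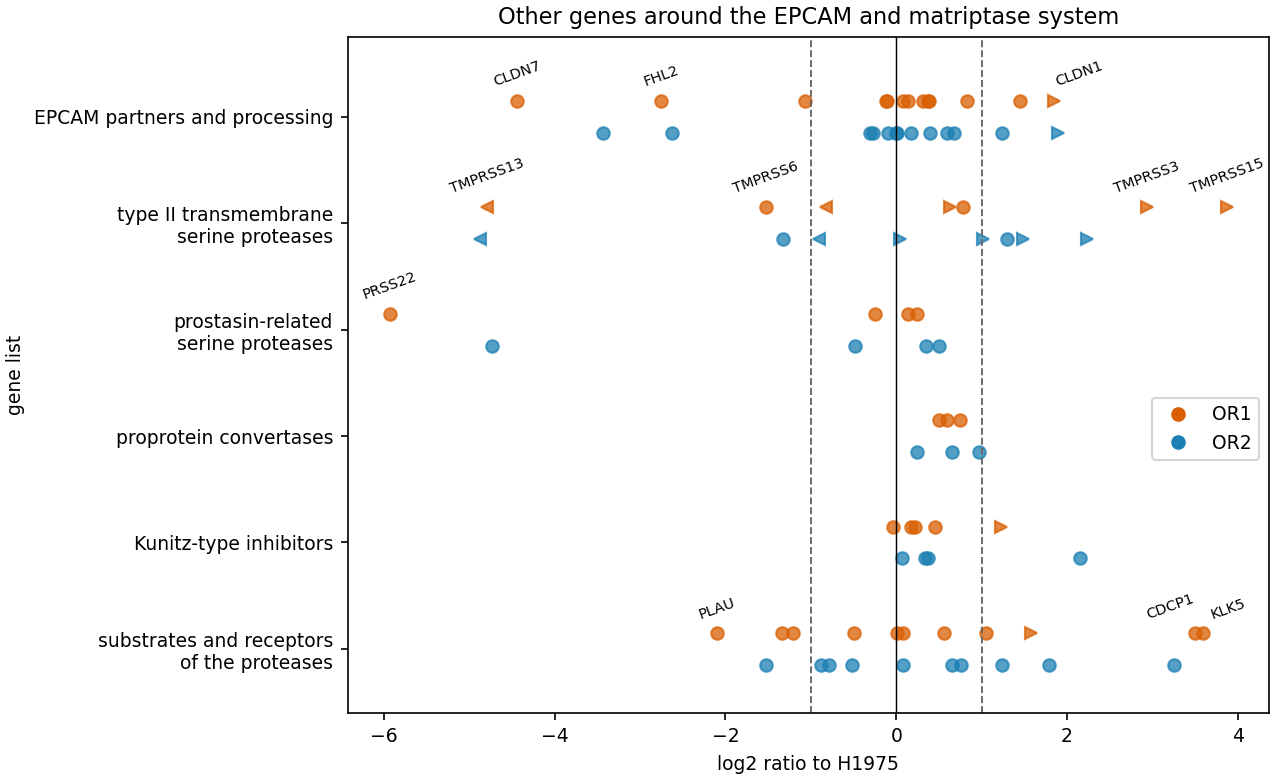
Each point is a listed gene at its log2 ratio to H1975, with OR1 above OR2 in each list. Triangles are bounds that point away from H1975, dashed lines mark ratios of 0.5 and 2, and the genes past the limit in both lines that the text describes carry their names. The lists hold genes on both sides, and the 3 measured convertases and most Kunitz-type inhibitors lie between the dashed lines.

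Of the 15 genes of EPCAM partners and processing, 13 were measured, and 2 were lower and 2 higher in both lines. CLDN7 read 5171 in H1975, 208 in OR1 and 490 in OR2, with ratios of 0.0459 and 0.0922. FHL2, a LIM-domain protein that binds the released intracellular part of EPCAM, read 8754, 1141 and 1460, with ratios of 0.149 and 0.162. A further probe of FHL2 gave 0.169 and 0.182, and another gave 0.266 and 0.274. On the higher side, CLDN1, the gene of claudin-1, read 11.2 in H1975, at background, and then 39.5 in OR1 cells and 47.8 in OR2 cells, and was at least 3.59-fold and 3.71-fold higher. The bounds of CLDN1 fell to 1.56 and 1.47 with normexp background correction. The sheddases and secretases that release parts of EPCAM did not pass the limit in either line, with 1.06 and 0.805 for ADAM10, 0.927 and 0.936 for ADAM17, 1.24 and 1.51 for PSEN2, and 0.921 and 0.998 for NCSTN (OR1 and OR2 ratios). The tetraspanin CD9, at 0.479 and 0.826, passed the limit in OR1 alone.

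Among 15 other type II transmembrane serine proteases 8 were measured, with 2 lower and 2 higher in both lines. By its brighter probe TMPRSS13 read 360 in H1975 and was at background in the resistant lines (4.66 and 2.88). This puts its ratios at no more than 0.0361 and 0.0341, and a further probe puts them at no more than 0.0759 and 0.0716. Under the other processings the values of TMPRSS13 went up to 0.178 in OR1 and 0.162 in OR2. TMPRSS6, a protease of iron regulation, read 37.5, 11.4 and 15.3, with ratios of 0.347 and 0.397. Its signal was close to background, and the call was lost with normexp correction (0.790 and 0.744) and with the median over its probes (0.598 and 0.623). TMPRSS3 read 3.02 in H1975, 84.2 in OR1 and 60.9 in OR2, at least 7.65-fold and 4.72-fold higher. TMPRSS15, enteropeptidase, read 6.02, 161 and 26.2, at least 14.7-fold and 2.03-fold higher. Both were below background in H1975. Across the processings tried, the OR1 values went as low as 2.16 for TMPRSS3 and 3.70 for TMPRSS15. With normexp correction the OR2 bounds fell to 1.61 for TMPRSS3 and 1.21 for TMPRSS15, under the limit. The OR2 bound of TMPRSS15 was also just under 2 with median scaling. TMPRSS2 had ratios of 1.72 and 2.46.

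Of the 4 prostasin-related proteases PRSS22 was lower in both lines, at 1527 in H1975, 21.9 in OR1 and 58.7 in OR2, with ratios of 0.0163 and 0.0374. Under the other processings the ratios of PRSS22 went up to 0.0601 in OR1 and 0.0761 in OR2. PRSS21, PRSS27 and TPSG1 had ratios between 0.713 and 1.41. Among 7 further convertases 3 were measured, namely MBTPS1, PCSK4 and PCSK7, with ratios between 1.18 and 1.96, none past the limit. The others stayed at background in all 3 lines. None of the 5 measured Kunitz-type inhibitors outside the HAI genes passed the limit in both lines: APP had ratios of 0.976 and 1.05, APLP2 of 1.17 and 1.29 and TFPI of 1.13 and 1.27, while TFPI2 had 1.38 in OR1 and 4.44 in OR2, and WFIKKN1 was at least 2.34-fold higher in OR1 alone. No listed convertase or inhibitor was lower by the limit in either line, in contrast to PCSK5, SPINT1 and SPINT2.

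Of 14 substrates and receptors 11 were measured, with 1 lower and 2 higher in both lines. PLAU, the gene of urokinase, whose precursor matriptase can activate, read 45562 in H1975, 9338 in OR1 and 16219 in OR2, with ratios of 0.234 and 0.346. CDCP1, a transmembrane protein that serine proteases cleave, read 51.1, 506 and 501, with ratios of 11.3 and 9.54. KLK5, a kallikrein protease of the skin, read 109.7, 1165 and 389.6, with ratios of 12.1 and 3.46. A further probe of PLAU gave 0.192 and 0.356, and a further probe of CDCP1, at background in H1975, was at least 6.88-fold and 5.18-fold higher. The receptors MET, for hepatocyte growth factor, and F2RL1, which serine proteases activate by cleavage, had ratios of 0.432 and 0.395 (OR1) and of 0.582 and 0.545 (OR2), past the limit in OR1 alone. HGF itself stayed at background in all 3 lines. PLAUR, the urokinase receptor, had ratios of 0.711 and 0.698, and SCNN1A, a subunit of the epithelial sodium channel that prostasin activates, had 1.47 and 2.36.

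The deposited arrays measured RNA and not promoters. The upstream sequences are given only as context for SPINT1 and PCSK5, which fell, and for FURIN, which did not pass the limit. RefSeq windows of 250 bases before the transcript start (GRCh38.p14) were at hand for SPINT1 (2 windows), PCSK5 (1) and FURIN (4). They were searched on both strands for the E-box CACCTG or CAGGTG, the binding motif of ZEB1 and SNAI2, and for the grainyhead cores AACCGGTT and AACCNGTT, motifs of epithelial transcription factors where the first is a special case of the second. Of 35116 windows of the same length 17.5% held the E-box, 0.117% AACCGGTT and 1.49% AACCNGTT. One SPINT1 window, chr15:40844227-40844476 on the plus strand, held 1 E-box that starts 26 bases before the transcript start, in capitals here. The PCSK5 window, chr9:75890423-75890672 on the plus strand, held none of these motifs, and neither did the other SPINT1 window or the 4 FURIN windows.
SPINT1 upstream window: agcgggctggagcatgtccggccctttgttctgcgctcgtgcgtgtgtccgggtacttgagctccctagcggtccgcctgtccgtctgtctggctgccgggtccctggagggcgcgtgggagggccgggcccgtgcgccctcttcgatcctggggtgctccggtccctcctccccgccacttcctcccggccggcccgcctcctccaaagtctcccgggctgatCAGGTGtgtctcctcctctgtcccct
PCSK5 upstream window: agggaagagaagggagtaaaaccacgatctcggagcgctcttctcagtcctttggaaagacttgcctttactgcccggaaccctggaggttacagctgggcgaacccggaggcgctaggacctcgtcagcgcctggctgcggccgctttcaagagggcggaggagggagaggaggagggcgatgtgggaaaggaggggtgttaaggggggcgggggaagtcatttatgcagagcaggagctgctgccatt

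**Figure D5:**
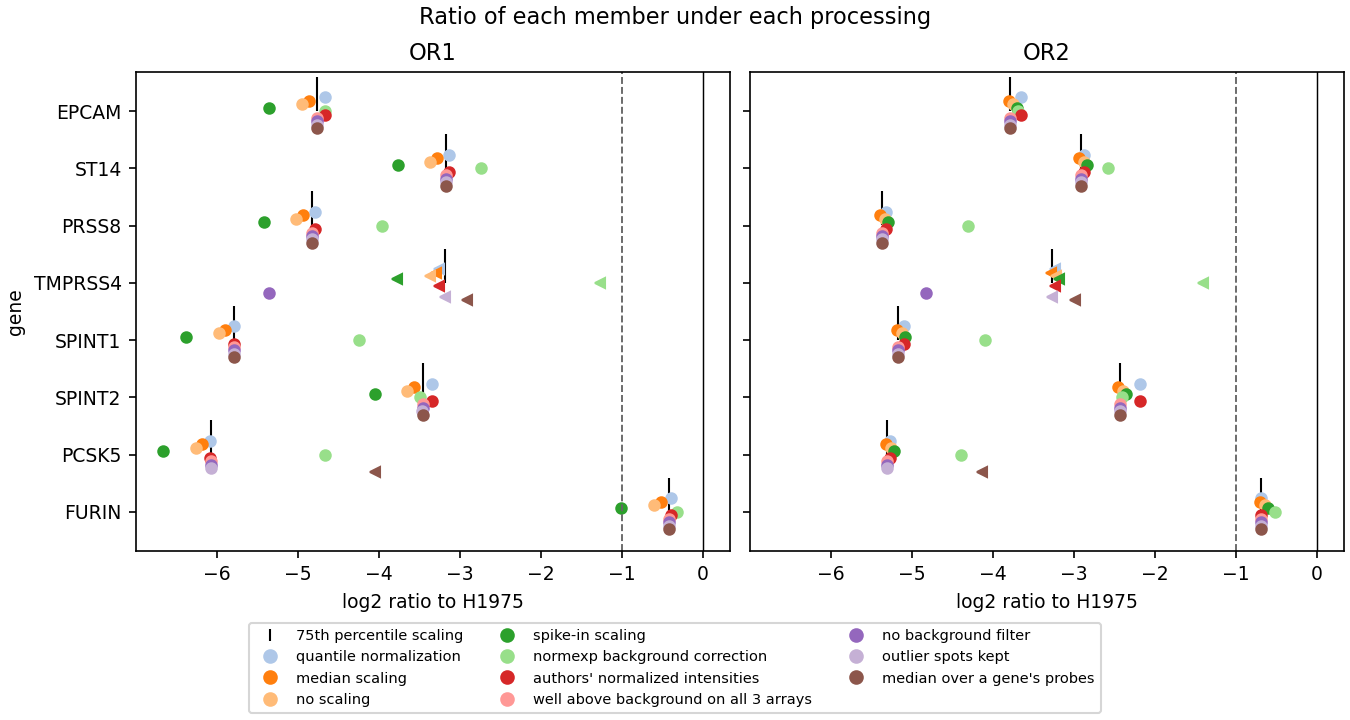
Each point is the log2 ratio of a member to H1975 in OR1 (left) and OR2 (right) under 1 processing, with the 75th percentile scaling as a black tick and triangles for upper bounds. The dashed line marks a ratio of 0.5. The 7 called genes lie left of the dashed line under every processing in which they have a value, and FURIN touches the line in OR1 with spike-in scaling.

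The calls of the 8 genes were nearly the same under each processing tried. Of the 7 lower genes, all had a ratio of at most 0.5 in both lines under each alternative that left them a value, as the plot of the members under each processing shows. TMPRSS4 alone had no value, where a gene had to be well above background on all 3 arrays. Its bound was also the weakest, at most 0.416 in OR1 and 0.377 in OR2 with normexp correction. In OR1 the ratio ranged from 0.0245 to 0.0396 for EPCAM, 0.0736 to 0.150 for ST14, 0.0234 to 0.0641 for PRSS8, 0.0120 to 0.0528 for SPINT1, 0.0604 to 0.0991 for SPINT2 and 0.00989 to at most 0.0606 for PCSK5. In OR2 it ranged from 0.0716 to 0.0798 for EPCAM, 0.131 to 0.167 for ST14, 0.0238 to 0.0505 for PRSS8, 0.0275 to 0.0586 for SPINT1, 0.183 to 0.220 for SPINT2 and 0.0250 to at most 0.0572 for PCSK5. The calls thus held, while the size of the decrease depended on the processing, among the measured ratios most of all for PCSK5, SPINT1 and PRSS8 in OR1. FURIN ranged from 0.499 to 0.804 in OR1 and from 0.614 to 0.701 in OR2, and its value of 0.499, with spike-in scaling, was past the limit.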

How the data were processed

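Labeled complementary RNA of H1975, OR1 and OR2 cells was hybridized by the authors to 1 Agilent SurePrint single-colour array per line. The deposited files hold the scanner software's processed intensity of each of 62976 spots, corrected for background within the array and not scaled between arrays (Agilent Feature Extraction 9.5.1.1 per the submitters' notes). A deposited table of intensities normalized by the authors was used as an alternative only. Control and outlier spots were dropped, a mean of log2 intensities was taken over replicate spots, and each array was scaled on its 75th percentile. The probe with the highest mean stood for a gene with several probes. A probe not well above background on 1 side gave a bound against the lowest intensity so called. Each resistant line was compared with H1975 as a ratio without a test, with limits of 2 and 0.5. The members and the gene lists were chosen with earlier results of these data known. Named genes are the 8 members with all probes, the listed genes past the limit in both lines, the 3 genes most like each member, and genes given as context. The values of some genes are not reported here. For all 11 member probes the file's accession had the same symbol in RefSeq.

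The 12 alternatives were quantile, median, spike-in (5 bright probes) or no scaling, normexp correction with an offset of 50, the authors' values, 2 background filters, outlier spots kept, the median over probes, and ratios of 4 and 1.5. Precision is limited by having 1 array per line, and the technical SD had a median of 0.20 over genes. The scripts were tested on simulated data. Python 3.11.15 with numpy 2.4.6 and pandas 2.3.3 and R 4.3.3 with limma 3.58.1 were used.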

Additional observations from a re-analysis of the deposited data

How the results depend on the processing

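The 7 members stayed lower in both lines under 11 of the 12 alternatives, and 6 were counted where a gene had to be well above background on all 3 arrays, which leaves TMPRSS4 without a value. These are not 12 independent checks. A ratio of 1.5 could not remove a call, and the authors' values gave nearly the same medians over all genes as quantile normalization. With spike-in scaling, which moved the median of all genes in OR1 by −0.61 on the log2 scale, FURIN was also lower in OR1 and 8 members were counted there, and at a ratio of 1.5 FURIN was lower in OR2 and 8 were counted in that line. The same scaling reversed OR2 against OR1 for PRSS8 (log2 0.13) and FURIN (0.40). The median log2 ratio of the members in OR1 was −4.70 with spike-in scaling, −3.73 with normexp correction, −4.76 over genes above background on all 3 arrays, −4.79 without a background filter and −3.75 with the median over probes. In OR2 it was −3.14 with normexp correction, −3.79 over genes above background on all 3 arrays and −4.30 without a filter. The 6 listed genes higher in both lines became 3 with normexp correction, 3 with the filter on all 3 arrays, 2 at a ratio of 4 and 10 at a ratio of 1.5. Of 158 alternative values of the members' ratios 135 moved by less than the technical SD, 23 by more and 0 changed sign. Of 57 single values, which also take in the named listed genes, the pairs and OR2 against OR1, 38 moved by more with normexp correction. With spike-in scaling 21 of the 57 moved by more and 2 changed sign. The cause of these moves was not tested. Signal over background limits TMPRSS4 and the PCSK5 probe of both variants to bounds. No paired analysis was possible because each line has 1 array.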
